A study of Vitis vinifera with 12 samples.

Results

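Grape berries make flavonols, pale flavonoids that absorb ultraviolet light and act as co-pigments of anthocyanins. Flavonol synthase, a dioxygenase, turns dihydroflavonols into flavonol aglycones, at the branch where dihydroflavonol reductase leads towards anthocyanins and tannins instead. Glycosyltransferases then attach a sugar acid or a sugar to the aglycone, and the MYB factor MYBF1 is known in grape as an activator of flavonol synthase transcription. The values below follow 5 genes of this branch through berry development, out of 22580 identifiers in the expression table. They were chosen by a fixed list of identifiers and names: the flavonol synthases VIT_18s0001g03430 and VIT_18s0001g03470, the glycosyltransferases GT5 (VIT_11s0052g01600) and GT6 (VIT_11s0052g01630), and MYBF1 (VIT_07s0005g01210). All 5 identifiers are in the table. The table itself pairs no identifier with a name or product, so these names rest on the list and could not be checked against an annotation, and the same holds for markers of the labelled tissue.

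Messenger RNA was sequenced from fruit of Vitis vinifera cultivar Flame Seedless, a red seedless table grape, with no treatment named. The groups were fruit at 40, 50, 60 and 80 days after full bloom, with 3 libraries (a, b and c) for each age. The labels describe the tissue only as fruit, so skin, pulp and seed traces are not separated, and fewer cells of a type and less RNA per cell cannot be told apart. The labels' protocol also says that RNA of biological replicates was pooled after extraction, so whether the lettered libraries come from separate plants is not known, and every p below reflects the spread among libraries alone, which may be technical. The values are FPKM, an estimated number of fragments divided by the length of the gene model and by the library's mapped total. Levels of different genes can thus be set side by side. Some values are too small to come from whole fragments, such as 1.02e-26 FPKM in library c of 50 days. Libraries summed to between 971004 and 1212610 FPKM, and between 13166 and 14326 identifiers reached 1 FPKM in each.

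The 5 genes fell into 3 kinds. The flavonol synthase VIT_18s0001g03430 was abundant and rose between 40 and 80 days, MYBF1 was weakly expressed at 40 days and fell by 50 days, and the other flavonol synthase, GT5 and GT6 were listed at 0 or well under 1 FPKM in every library. For testing, an identifier had to reach 1 FPKM in at least 3 of the 12 libraries, and 14579 did. Among the 5 genes, VIT_18s0001g03430 and MYBF1 passed, and the other 3 did not. MYBF1 passed only through its 40-day libraries, so it had to differ between ages to pass at all. Unless the filter is named, its tests below use a limma fit with no such filter, over all 21179 identifiers above 0 in any library. Calling a change required a p under 0.05 after Benjamini-Hochberg adjustment, plus an absolute difference of 1 or more in log2(FPKM + 1). Across the 4 ages VIT_18s0001g03430 changed, with a limma F test adjusted p of 7.21e-06, where 24.3% of all tested identifiers did.

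**Figure D1:**
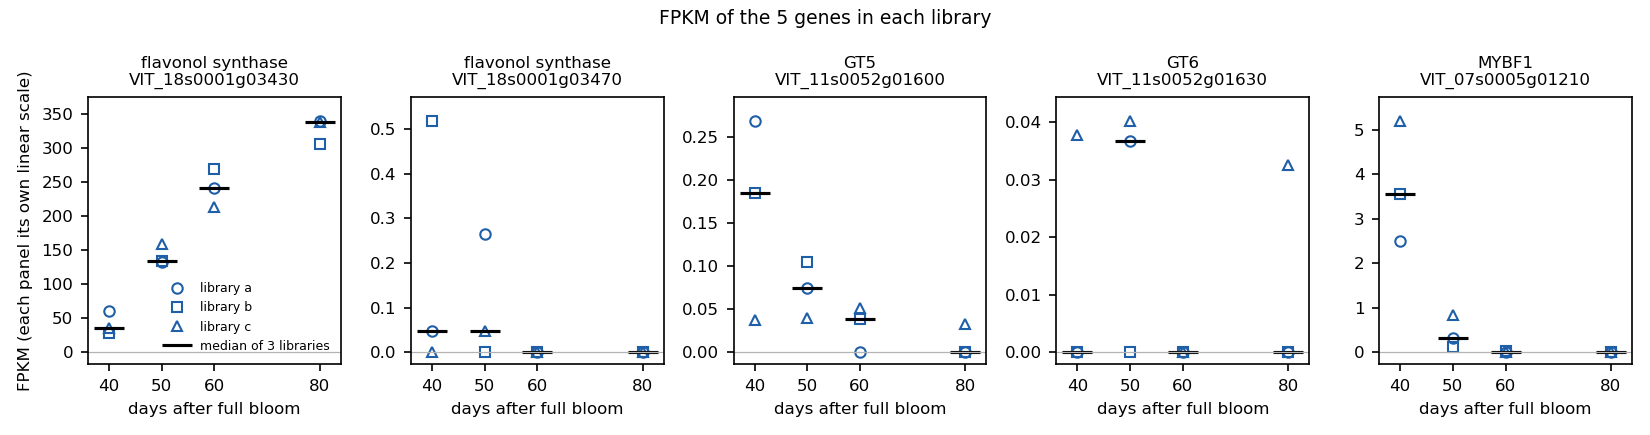
FPKM (vertical axis, linear, its own scale in each panel) against days after full bloom for the 5 genes. Symbols are the single libraries and black bars the median of 3 libraries; VIT_18s0001g03430 reaches 340 FPKM at 80 days, MYBF1 reaches at most 5.20 FPKM at 40 days and lies near 0 from 60 days on, and the other 3 genes never exceed 0.519 FPKM.

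Flavonol synthase VIT_18s0001g03430, the enzyme that commits dihydroflavonols to flavonols, had 60.4, 29.0 and 36.3 FPKM in libraries a, b and c at 40 days. It had 132, 135 and 159 FPKM at 50 days. It had 241, 270 and 213 FPKM at 60 days, and 340, 307 and 339 FPKM at 80 days. Every library of an age thus stood above every library of the age before. Among tested identifiers, such a separation with the later age higher was seen in 22.4% for 50 against 40 days, 20% for 60 against 50 days and 20.1% for 80 against 60 days. Summed FPKM was also higher in the 80-day libraries (1126530 to 1212610) than in the 60-day ones (971004 to 1057010). The median log2 difference of all tested identifiers between these ages was 0.006. Whether the last separation holds at equal sums was not tested. Relative to the mean, the spread between libraries was widest at 40 days, where replicate a had more transcript than the other two. The coefficient of variation was 39.2% among the 40-day libraries and 10.2% among the 50-day ones. It was 11.7% for 60 days and 5.83% for 80 days.

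Over the whole period, VIT_18s0001g03430 averaged 329 ± 19.1 FPKM at 80 days and 41.9 ± 16.4 FPKM at 40 days (SD, n = 3 libraries each), 7.84 times as much. The difference of log2(FPKM + 1) was 3.01 ± 0.209 (SE; limma adjusted p = 1.44e-06), a rise of a kind called in 6.95% of tested identifiers. Ordered by size of rise in this comparison, the gene was number 77 of the 14579. Its level moved up among all identifiers at the same time. By mean FPKM it ranked 3371 of 22580 at 40 days and 1018 at 50 days, then 546 at 60 days and 423 in the last age, 80 days.

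On the log2 scale the first interval held most of the rise, while in FPKM the means stepped up by 99.9 between 40 and 50 days, by 99.7 between 50 and 60 days and by 87.1 between 60 and 80 days. At 50 days the gene averaged 142 ± 14.5 FPKM, against 41.9 ± 16.4 FPKM at 40 days, 3.38 times as much (log2 difference 1.80 ± 0.209, limma adjusted p = 0.000205), where 2.09% of tested identifiers were called higher. By 50 days 59.8% of its whole log2 change was reached, and by 60 days 85.1%. At 60 days it averaged 242 ± 28.3 FPKM, 1.70 times its mean at 50 days. That log2 difference of 0.76 ± 0.209 passed the adjusted p (limma, 0.0337) but not the minimum size and was not called. In this interval 3.68% of tested identifiers were called in either direction. With a library left out, the limma adjusted p was 0.00505 (without 40-day replicate a) to 0.122 (without 60-day replicate b). With no filter it was 0.0563, so passing the adjusted p depended on single libraries and on the filter. At 80 days the mean was 1.36 times that at 60 days, and this step did not pass (log2 difference 0.45 ± 0.209, limma adjusted p = 0.152; 3.6% of tested identifiers called in either direction). The 95% interval of the last step ran from -0.01 to 0.91, so both a flat course and a further rise of nearly 1 on the log2 scale lie within it. Its SE is pooled over the 4 ages, so it does not measure the spread at 60 and 80 days alone. The SD of log2(FPKM + 1) was 0.53 at 40 days, 0.17 at 60 days and 0.09 at 80 days. With a library left out, the limma adjusted p of this step was 0.0256 (without 40-day replicate a) to 0.362 (without 60-day replicate c). The step was never called. Across 2 intervals at once the rise was called: 60 against 40 days gave 2.56 ± 0.209 (limma adjusted p = 1.13e-05; 3.52% of tested identifiers called higher) and 80 against 50 days gave 1.21 ± 0.209 (limma adjusted p = 0.00121; 3.13% called higher). With replicate a of 40 days left out, the whole difference was 3.30, and with replicate b left out 2.78.

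MYBF1 took the opposite course to VIT_18s0001g03430. The list of names does not say which of the flavonol synthases MYBF1 activates. This regulator, known to activate flavonol synthase promoters in grape, had 2.51, 3.56 and 5.20 FPKM in libraries a, b and c at 40 days. It had 0.318, 0.132 and 0.831 FPKM at 50 days. At 60 days it was listed at 0 in libraries a and c and had 0.0366 FPKM in library b, and at 80 days it was listed at 0 in all 3 libraries. Every library after 40 days lay below 1 FPKM, and the 40-day libraries all lay above it. Libraries at 50 days lay below all those at 40 days, as they did in 21.2% of the 21179 identifiers, and libraries at 60 days lay below all those at 50 days, as in 14.2%, while 60 and 80 days shared the value 0. At its highest, with a mean at 40 days of 3.76 ± 1.36 FPKM (SD, n = 3), MYBF1 ranked 11436 of 22580 identifiers, near the middle.

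At 50 days MYBF1 averaged 0.427 ± 0.362 FPKM, against 3.76 ± 1.36 FPKM at 40 days (SD, n = 3 each), 8.79 times less. The difference of log2(FPKM + 1) was -1.73 ± 0.205 (SE; limma with no filter, adjusted p = 0.000539), where 3.95% of the 21179 identifiers were called lower. The difference between 60 and 50 days was -0.47 ± 0.205 (limma adjusted p = 0.194) and that between 80 and 60 days -0.02 ± 0.205 (limma adjusted p = 1), and neither was called, nor was that between 80 and 50 days, -0.48 ± 0.205 (limma adjusted p = 0.114). For 80 against 40 days it was -2.21 ± 0.205 (limma adjusted p = 2.2e-05), where 9.76% of the 21179 were called lower, and for 60 against 40 days -2.19 ± 0.205 (limma adjusted p = 6.95e-05; 6.79% called lower). No fold is given for 80 days, since all its values are listed at 0. The SE of MYBF1 is pooled over the 4 ages, so it does not measure the spread at 60 and 80 days alone. The SD of log2(FPKM + 1) was 0.41 at 40 days, 0.35 at 50 days and 0.03 at 60 days. On this scale 78.1% of the whole change was reached by 50 days and 99.2% by 60 days. These sizes depend on the added 1. With 0.1 added instead and the filter kept, the difference was -3.04 for 50 against 40 days and -5.21 for 80 against 40 days. In that filtered fit the difference of -2.02 between 60 and 50 days was called (limma adjusted p = 0.0387). MYBF1 passed this filter only through its 40-day libraries, and adding 0.1 with no filter was not tested. When any 40-day library was left out MYBF1 missed the filter. Kept in the fit regardless, a choice made after seeing the data, its differences between 80 and 40 days were -2.41 to -2.00.

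**Figure D2:**
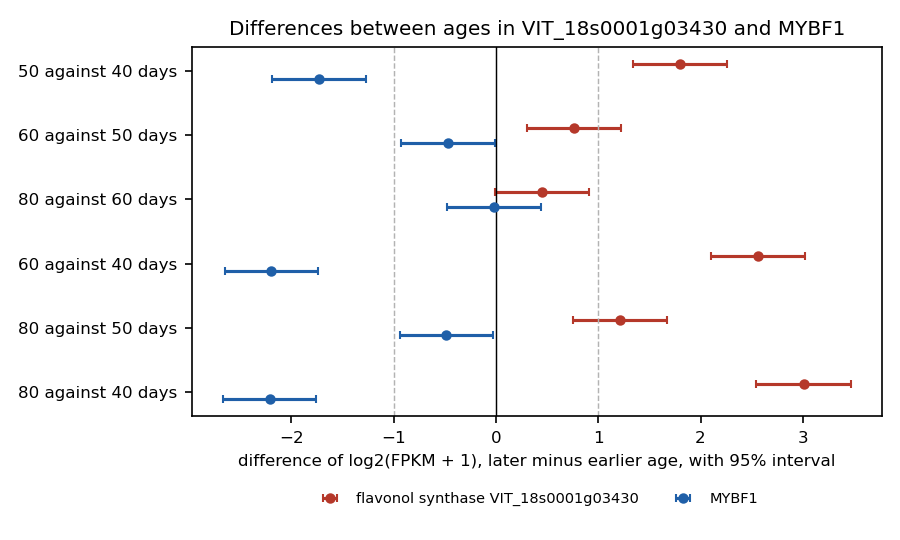
Difference of log2(FPKM + 1), later minus earlier age (horizontal axis), for the 6 pairs of ages in VIT_18s0001g03430 and MYBF1; points are limma estimates, whiskers 95% intervals (for MYBF1 from the fit with no filter), and dashed lines mark differences of -1 and 1. All VIT_18s0001g03430 estimates are positive, up to 3.01, and all MYBF1 estimates are negative, down to -2.21.

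MYBF1 and VIT_18s0001g03430 therefore stood in opposite order at the ends of the period. VIT_18s0001g03430 was highest at 80 days, where MYBF1 was listed at 0, and lowest at 40 days, where MYBF1 was highest. The other flavonol synthase and GT5, like MYBF1, had their highest values at 40 days, but at 0.519 and 0.269 FPKM only. Whether MYBF1 acts on any of these genes was not tested. In the first interval the 95% intervals of their differences were 1.34 to 2.26 for VIT_18s0001g03430 and -2.18 to -1.27 for MYBF1. The libraries with the most MYBF1 were not those with the most VIT_18s0001g03430 within the 40-day group. There MYBF1 was highest in replicate c, at 5.20 FPKM, and the flavonol synthase was highest in replicate a, at 60.4 FPKM, where MYBF1 had its lowest 40-day value, 2.51 FPKM. At 50 days replicate c was highest for both, with 0.831 FPKM of MYBF1 and 159 FPKM of the flavonol synthase. The spread among libraries of an age may be technical, and any link of these orders to regulation was not tested.

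**Figure D3:**
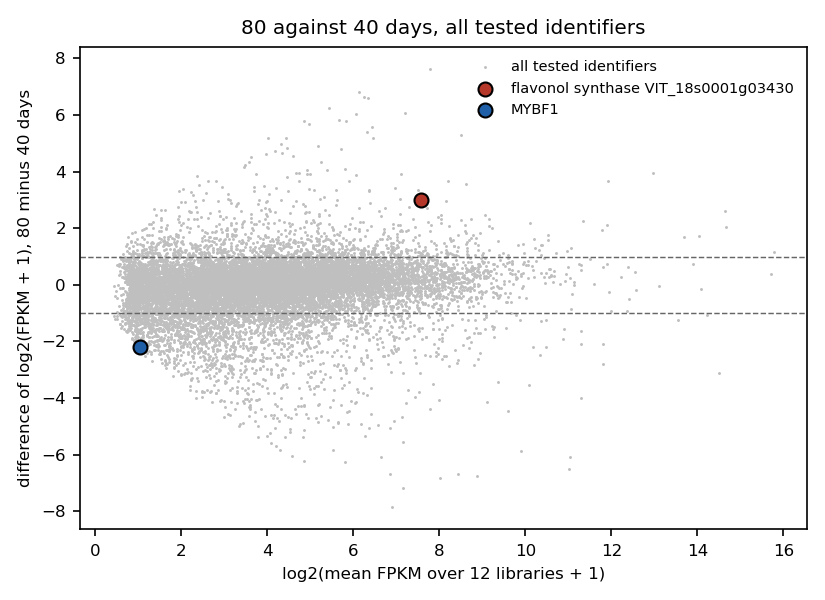
Difference of log2(FPKM + 1), 80 minus 40 days (vertical axis), against log2 of the mean FPKM over 12 libraries plus 1 (horizontal axis) for all 14579 tested identifiers (grey), with both tested genes marked and dashed lines at -1 and 1. VIT_18s0001g03430 lies high on both axes, at a difference of 3.01, and MYBF1 lies at the weakly expressed end, at -2.21.

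The other flavonol synthase, VIT_18s0001g03470, bears the same enzyme name but was nearly absent from the table's values. At 40 days it had 0.0481 FPKM in library a, 0.519 FPKM in library b and 0 in library c. At 50 days it had 0.266 FPKM in library a, 0 in library b and 0.0479 FPKM in library c. In all libraries of 60 and 80 days it was listed at 0. The values above 0 were thus confined to 4 of the 6 libraries of the first 2 ages, and none reached 1 FPKM. It shared that with 6851 of the 22580 identifiers, 30.3%, which stayed under 1 FPKM in every library. Of the summed FPKM of both flavonol synthases, VIT_18s0001g03470 made up at most 1.76%, in replicate b at 40 days, and its share did not differ detectably between ages (exact permutation test with 15400 ways to divide the libraries among ages, p = 0.236, adjusted 0.315 over 4 library measures). The sum of both was 329 ± 19.1 FPKM at 80 days and 42.1 ± 16.2 FPKM at 40 days (SD, n = 3), and differed between ages at the smallest p that this test allows (exact permutation p = 6.49e-05, adjusted 0.00026). In effect this sum repeats VIT_18s0001g03430.

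The glycosyltransferases GT5 and GT6 finish the branch. GT5 is known in grape to attach glucuronic acid to flavonols, and GT6 to attach glucose or galactose. GT5 had 0.269, 0.186 and 0.0379 FPKM in libraries a, b and c at 40 days, and 0.0744, 0.105 and 0.0406 FPKM at 50 days. At 60 days it was listed at 0 in library a and had 0.0384 and 0.0518 FPKM in libraries b and c. At 80 days it was listed at 0 in libraries a and b and had 0.0326 FPKM in library c. The highest value was thus at 40 days, and libraries of neighbouring ages overlapped. GT6 was above 0 in 4 libraries only, with 0.0378 FPKM in replicate c at 40 days, 0.0368 and 0.0403 FPKM in replicates a and c at 50 days, and 0.0325 FPKM in replicate c at 80 days. In 3 of these libraries, the c replicates, GT5 and GT6 had nearly equal values, such as 0.0326 FPKM of GT5 and 0.0325 FPKM of GT6 at 80 days.

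The sum of GT5 and GT6 was highest at 40 days, where the libraries ranged from 0.0757 to 0.269 FPKM. It ranged from 0.0809 to 0.111 FPKM at 50 days, from 0 to 0.0518 FPKM at 60 days and from 0 to 0.0651 FPKM at 80 days. The exact permutation test over the 4 ages gave p = 0.023 (adjusted 0.046 over 4 library measures). Without replicate a or without replicate b of 80 days the p was 0.0545. With no filter on low values, none of the 3 weak genes was called in any interval or over the whole period (limma), and the lowest adjusted p was 0.0261, for GT5 in 80 against 40 days, at a log2 difference of -0.20, which was also the only one of these comparisons with an unadjusted p under 0.05 (0.0106). A check of low values for steps of 1 read recovered none, so the number of fragments behind these values is not known. The share of GT6 in the sum has a value in the 9 libraries where either gene was above 0, and 3 libraries of 60 and 80 days were left out. It averaged 16.6% ± 28.8 at 40 days and 27.6% ± 25.4 at 50 days (SD, n = 3 each), was 0% in both libraries of 60 days that have a value, and 50.0% in the single one of 80 days. It did not differ detectably between ages (exact permutation test with 2520 ways to divide the 9 libraries, p = 0.381, adjusted 0.381 over 4 library measures; the smallest p it allows is 0.000397).

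The numbers within grape identifiers follow gene order, and both enzyme pairs lie close to each other by number. Identifiers within 100 of a member's number in the same block were therefore examined, by number only, since the table names none. How the authors' counting shared fragments among similar neighbouring genes is not given in the sources used here, so values of array members may be mixed. Around the flavonol synthases, 13 other identifiers were in the table and 8 were tested. None of them was called higher at 80 than at 40 days, where 6.95% of tested identifiers were, and 1 was called lower, where 14% were. That was VIT_18s0001g03540, with 0.254 ± 0.194 FPKM at 80 days and 2.45 ± 1.16 FPKM at 40 days (log2 difference -1.41, limma adjusted p = 0.00196). It had at most 0.371 FPKM at 80 days and reached 1 FPKM only in libraries of 40, 50 and 60 days. It thus passed the filter through the earlier ages alone, and this p comes from the filtered fit. The median difference of the 8 was 0.23, beside 0.00 over all tested identifiers. Between both flavonol synthases lies VIT_18s0001g03450, which was abundant at every age, averaging 344 ± 35.0 FPKM at 40 days and 421 ± 11.8 FPKM at 50 days. Its means were 482 ± 41.1 FPKM at 60 days and 516 ± 42.3 FPKM at 80 days (SD, n = 3), and it was not called in any comparison. Its log2 difference between 80 and 40 days, 0.59 (limma adjusted p = 0.000357), missed only the minimum size, so it is not a flat reference. VIT_18s0001g03430 stood at 9.37% to 17.7% of this neighbour's FPKM in the 40-day libraries, 31.5% to 37.1% at 50 days, 45.6% to 60.1% at 60 days and 59.8% to 71.7% at 80 days. On the far side of VIT_18s0001g03470, VIT_18s0001g03510 never exceeded 0.0277 FPKM.

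Around GT5 and GT6, 14 other identifiers were in the table and 7 were tested. In 80 against 40 days 4 were called lower and 0 higher, where 14% of all tested identifiers were called lower. The median difference of the 7 was -1.12. The largest difference of the 4 was that of VIT_11s0052g01570, with 58.4, 66.7 and 79.6 FPKM in libraries a, b and c at 40 days and 28.2, 27.7 and 27.2 FPKM at 50 days. It had 16.0, 13.5 and 33.1 FPKM at 60 days, then 6.65, 4.54 and 3.44 FPKM at 80 days. Its 80-day libraries lay below those of every other age, and its log2 difference between 80 and 40 days was -3.58 ± 0.285 (limma adjusted p = 2.88e-06). VIT_11s0052g01710 averaged 56.7 ± 7.18 FPKM at 80 days and 181 ± 35.7 FPKM at 40 days (log2 difference -1.65, limma adjusted p = 0.000101). VIT_11s0052g01700 averaged 36.4 ± 4.79 FPKM at 80 days and 79.9 ± 7.29 FPKM at 40 days (-1.12, limma adjusted p = 4.69e-05). VIT_11s0052g01540 averaged 0.809 ± 1.13 FPKM at 80 days and 4.34 ± 3.57 FPKM at 40 days (-1.54, limma adjusted p = 0.0251), and it was no longer called without replicate c of 40 days (adjusted p = 0.106), replicate a of 80 days (0.0776) or replicate b of 80 days (0.0902). Of the other identifiers within 20 of GT5 or GT6 by number, VIT_11s0052g01580, VIT_11s0052g01620 and VIT_11s0052g01640 stayed under 1 FPKM in every library, the highest value being 0.308 FPKM, and VIT_11s0052g01650 had 0.966, 2.03 and 0.711 FPKM in the 40-day libraries and at most 0.138 FPKM later.

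**Figure D4:**
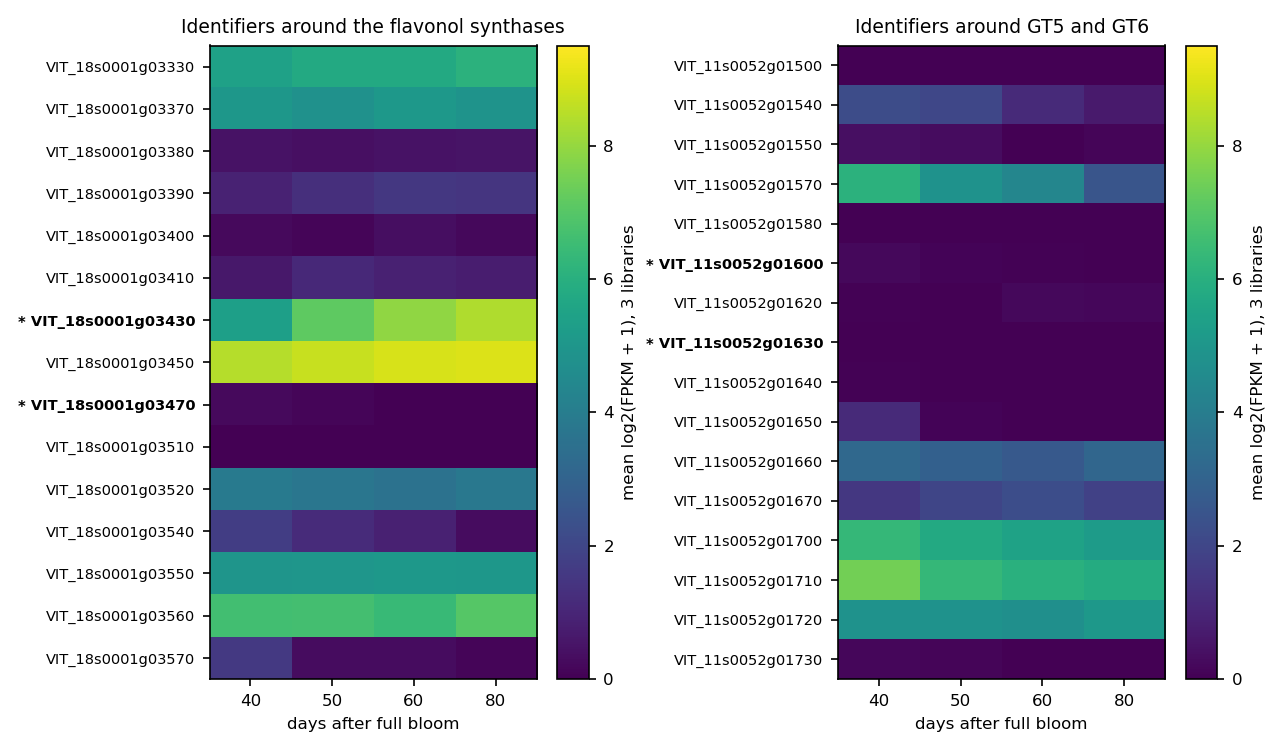
Mean log2(FPKM + 1) of 3 libraries (colour) at each age (columns) for identifiers within 100 of the flavonol synthases (left) and of GT5 and GT6 (right), in order of their numbers, with the members starred. VIT_18s0001g03430 brightens with age beside VIT_18s0001g03450, which is bright at every age and rises less, while VIT_18s0001g03470, GT5 and GT6 stay near 0.

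Around MYBF1, 18 other identifiers were in the table and 13 were tested. None was called in 80 against 40 days, where 6.95% of tested identifiers were called higher and 14% lower, and their median difference was 0.33, beside 0.00 over all tested identifiers. VIT_07s0005g01290 was called lower at 60 than at 50 days, with 0.525 ± 0.211 FPKM at 60 days and 2.74 ± 0.945 FPKM at 50 days (log2 difference -1.27, limma adjusted p = 0.00698; 2.53% of tested identifiers called lower). It was also called lower at 80 than at 50 days (-1.21, limma adjusted p = 0.00227, where 5.8% were called lower). VIT_07s0005g01290 reached 1 FPKM only in the 40- and 50-day libraries, with at most 0.739 FPKM later. It thus passed the filter through the earlier ages alone, and these p-values come from the filtered fit.

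Many identifiers followed courses like those of the tested genes. Likeness was measured as Pearson's r of log2(FPKM + 1) over the 12 libraries, which share the 4 ages, among identifiers with a mean of at least 5 FPKM and a range of age means of at least 1. Most like VIT_18s0001g03430 were VIT_01s0026g00740 (r = 0.99) and VIT_05s0049g00470 (r = 0.99), and 93 of 2523 candidates had r over 0.95. Opposite courses were more numerous, with r under -0.95 in 196 of these candidates. VIT_01s0026g00740 averaged 62.7 ± 9.21 FPKM at 40 days and 214 ± 21.4 FPKM at 50 days. It averaged 369 ± 46.1 FPKM at 60 days and 491 ± 78.5 FPKM at 80 days, and its log2 difference between 80 and 40 days was 2.95. VIT_05s0049g00470 averaged 130 ± 5.49 FPKM at 80 days and 48.0 ± 7.98 FPKM at 40 days, a smaller rise of 1.43 (log2). Most like MYBF1 were VIT_01s0011g01510 (r = 0.98) and VIT_05s0020g04610 (r = 0.98), and 74 of 2524 candidates had r over 0.95. Here 42 candidates had r under -0.95. VIT_01s0011g01510 averaged 107 ± 18.1 FPKM at 40 days and 51.3 ± 9.29 FPKM at 50 days. It then averaged 36.9 ± 2.35 FPKM at 60 days and 37.9 ± 1.22 FPKM at 80 days. Unlike MYBF1 it stayed well above 0 at the last ages. VIT_05s0020g04610 averaged 9.24 ± 0.530 FPKM at 80 days, against 17.6 to 22.1 FPKM in the 40-day libraries, a log2 difference of -1.03 at the edge of the minimum size, which was -0.96 without replicate c of 40 days, -0.99 without replicate a of 80 days and -0.92 with quantile normalization.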

How the data were processed

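The authors deposited 1 table of FPKM values with 22580 identifiers and 12 libraries, matched to the samples through the library codes in the labels. Per the submitters' processing notes, Trimmomatic 0.36, FastQC, TopHat2, Cufflinks and edgeR were used, with no roles given. Neither genome build nor annotation is given in the sources used here. Per the labels' protocols, libraries were directional and made from oligo(dT)-selected RNA. None of the identifiers (0 of 22580) was found in the RefSeq table of assembly ASM3070453v1, so gene sequences and other named pathway genes, including a planned pathway list, were not used.

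Values were taken as log2(FPKM + 1). With a trended prior variance, limma 3.58.1 under R 4.3.3 was fitted to the 14579 identifiers with at least 1 FPKM in at least 3 libraries, over all 12 libraries with a mean per age, and was tested on simulated data. P-values were adjusted over all 14579. For MYBF1, which passed the filter only through its 40-day libraries, the fit with no filter (21179 identifiers) gave the p-values used. Library measures were compared by exact permutation. Depth is unknown: in 66 pairs of libraries, ratios of values under 0.5 FPKM showed no steps of 1 read (the fullest bin of 0.005 in log2 held 0.459% to 2.43% of identifiers). The members and lists were chosen with earlier results of these data known. Named identifiers were all 5 members, neighbours called at least once, and the 2 most similar identifiers per tested member; VIT_18s0001g03450, VIT_18s0001g03510, VIT_18s0001g03580 and the 4 identifiers within 20 of GT5 or GT6 fall outside this rule and were named after their values were seen.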

Additional observations from a re-analysis of the deposited data

How the results depend on the processing

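Over the alternatives, no called difference turned direction, and VIT_18s0001g03430 stayed called in 50 against 40 and 80 against 40 days under all of them. MYBF1 was called between 60 and 50 days with a pseudocount of 0.1 and the filter kept (-2.02), which raised the number of members called there to 1. With a mean of at least 5 FPKM, MYBF1 was not tested, and 1 member was called at any age, 1 in 50 against 40 days and 1 in 80 against 40 days. Leaving out each library in turn gave 1 to 2 members called in each of these, since MYBF1 misses the filter without a 40-day library. All identifiers called in 80 against 60 days numbered 847 with a pseudocount of 0.1; the cause was not tested. Leaving out libraries gave 334 (without 60-day replicate c) to 577, against 525 with all. In 60 against 50 days it gave 326 (without 60-day replicate b) to 647, against 536 with all, and 332 without 50-day replicate c. The share of VIT_18s0001g03470, 80 minus 40 days, was -0.918 to -0.0398 percentage points with a library left out, past the threshold only without 40-day replicate c (permutation p = 0.0227). As a log2 ratio of both genes it was -3.23, which by construction carries the rise of VIT_18s0001g03430. The share of GT6, 80 minus 40 days with 1 library at 80 days, was 25.0 to 50.0 percentage points with a library left out, and no permutation p passed. The sum of GT5 and GT6 changed by -0.206 to -0.109 FPKM. Quantile normalization moved the median of all identifiers in 80 against 40 days from 0.00 to 0.11 and gave 2.97 for VIT_18s0001g03430 and -2.02 for MYBF1. With the replicate block the estimates were the same, 3.01 and -2.21 in 80 against 40 days, and no member's call changed. Same-letter libraries showed no clear pairing (correlations of deviations -0.298 to 0.249). Unknown depth limits what the weakest genes can show.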

Other observations

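MYBF1 was 1 of 21 identifiers that had at least 1 FPKM in all 40-day libraries and were listed at 0 in all 80-day libraries, out of 13326 that had at least 1 FPKM at 40 days (0.158%). This grouping was chosen after its values were seen.

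Just outside the range of neighbours examined, VIT_18s0001g03580 of the same identifier block as the flavonol synthases was the third most similar identifier to VIT_18s0001g03430 (r = 0.98 over 12 libraries), and it too was picked after its values were seen. It was far more abundant, with 1332 ± 181 FPKM at 40 days and 3694 ± 119 FPKM at 50 days (SD, n = 3 each). Its mean was 4488 ± 444 FPKM at 60 days and 5772 ± 421 FPKM at 80 days. Its log2 difference between 80 and 40 days was 2.12 (limma adjusted p = 7.9e-07).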
